A study of Mus musculus with 6 samples.

Results

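The WNT genes described here are the ligands, receptors and secreted modulators of the pathway with a few of its feedback genes, chosen by symbol in the array's probe-to-gene table: all numbered Wnt, Fzd, Dkk, Sfrp and Rspo genes, with Frzb, Lrp5, Lrp6, Axin2, Lef1 and Nkd1. They numbered 47 of the 19057 genes named on the array and were read by 82 of its 45281 probes. Tcf7, a nuclear partner of beta-catenin, was also asked for but is not analysed here. RNA was measured in cells carrying GFP that were sorted out of mouse heads at embryonic day 9.5 (background C57Bl/6 x 129 x ARC/s). Mesp1-Cre crossed to Z/EG gave the 3 samples of cranial mesoderm, and Wnt1-Cre crossed to Z/EG gave the 3 samples of cranial neural crest. Z/EG is a reporter that turns on GFP after Cre has acted, so each sort holds the descendants of the cells in which Cre was active. Mesp1-Cre is known to mark vessels and blood beside head mesenchyme, and Wnt1-Cre dorsal neural tube and midbrain beside migrating crest. The regulatory sequence of Wnt1, itself among these genes, drives the Cre in the crest sort, so the level of Wnt1 is not independent of the sort. How many embryos or litters made up a sample is not given in the sources used here, so p-values measure the spread between these samples.

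WNT proteins are secreted ligands that bind Frizzled receptors together with the co-receptors LRP5 and LRP6. In the canonical branch this binding stabilises beta-catenin, which enters the nucleus and acts with TCF and LEF factors on target genes such as Axin2, itself a brake on the pathway. Secreted Frizzled-related proteins hold ligands away from receptors, most Dickkopf proteins block the co-receptors, and R-spondins strengthen the signal. In the early head, ligands of the dorsal neural tube are known for the induction and expansion of the crest.

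Array-wide values were even between groups: 30.8% to 32.6% of probes were detected on mesoderm arrays and 32% to 34.1% on crest arrays. Pearson's r of log2 values over all probes, which are not independent, was 0.9702 to 0.9811 within mesoderm, 0.9784 to 0.9907 within crest and 0.9263 to 0.9632 between the groups. The sorts carried the markers of their labels. The 7 tested head mesoderm markers summed to 3070 to 3970 normalized signal units on mesoderm arrays and 349 to 473 on crest arrays. The 9 tested crest markers summed to 3090 to 3780 on mesoderm arrays and 10600 to 15700 on crest arrays. At the threshold given below, 6 head mesoderm markers were higher in mesoderm and 0 lower, and 7 crest markers lower and 0 higher. The crest markers Sox9 and Ets1 did not pass and were high in both sorts (means 11.14 and 9.72 in mesoderm, 11.65 and 10.09 in crest). Of the defining genes, Mesp1 and Myf5 were detected on no array, and neither were Foxd3, Dlx5 and Erbb3. All arrays lay on 1 chip with the groups at separate positions, so position and cell type cannot be told apart. Since these are bulk samples, fewer cells of a type and less RNA per cell cannot be told apart either.

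Many WNT genes were below the limit of detection in both sorts. A probe counted as detected at a detection p under 0.05, which compares its signal with the array's negative controls, and a gene was tested when a probe was detected on at least 3 of the 6 arrays. Of the 47 genes 23 were tested, 22 were detected on no array, and 2 (Dkk1 and Wnt3) were detected on too few. Wnt3, a ligand of early embryos, was seen on 0 of 3 mesoderm and 2 of 3 crest arrays. Dkk1, a Dickkopf antagonist of the pathway, was seen on 1 array of each sort. The ligand genes detected on no array were Wnt2, Wnt2b, Wnt6, Wnt8a, Wnt8b, Wnt9a, Wnt9b, Wnt10a, Wnt10b, Wnt11 and Wnt16. The same held for the receptors Fzd1, Fzd4, Fzd8 and Fzd9 and for the modulators Dkk2, Dkk4, Rspo2, Rspo4, Sfrp4 and Sfrp5. Lef1, a nuclear partner of beta-catenin, was detected by none of its 4 probes, with log2 values between 4.40 and 4.67. This shows only that the probe was not above background. The number of WNT genes detected was 17, 19 and 18 on mesoderm arrays 1, 2 and 3, and 24 on each crest array.

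**Figure D1:**
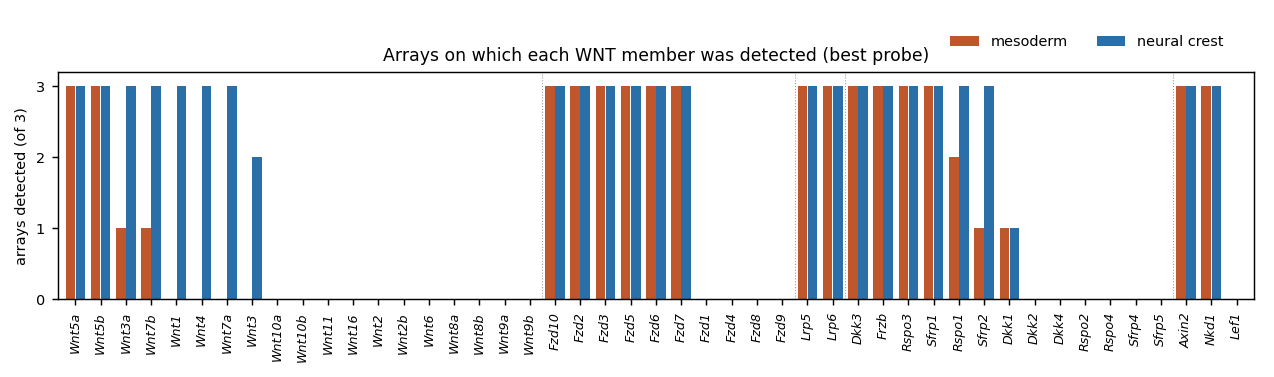
Bars give the number of arrays, of 3 per sort, on which the best probe of each of the 47 WNT genes was detected (mesoderm left, neural crest right), with dotted lines between ligands, receptors, co-receptors, secreted modulators and intracellular genes. Wnt1, Wnt4 and Wnt7a were detected on all 3 crest arrays and on no mesoderm array, and no tested gene was detected in mesoderm alone.

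Of the 23 WNT genes tested, 10 were lower and 3 higher in mesoderm than in crest (limma, Benjamini-Hochberg adjusted p under 0.05 over all genes). Over all 9214 genes tested, 8.25% were lower and 10.1% higher, against 43.5% and 13% of the WNT genes. The share lower cannot be read as particular to WNT genes, since 6 of the 10 (Wnt3a, Wnt1, Wnt7a, Wnt4, Wnt7b and Sfrp2) were detected on all 3 crest arrays and on at most 1 mesoderm array. They passed the filter through crest, the sort in which they were high. Among the 16 WNT genes detected on all 6 arrays 4 were lower and 3 higher, against 6.75% lower and 7.46% higher of the 7189 genes so detected. The median log2 difference, mesoderm minus crest, was -0.97 over the 23 genes and -0.80 over the 16, against -0.07 over all genes tested. The arrays of the sorts did not overlap in 11 WNT genes with crest higher and in 3 with mesoderm higher. That background was 19.6% of all genes with crest higher and 17.6% with mesoderm higher.

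The ligand genes that passed the threshold were all higher in crest. Of 19 on the array 7 were tested, and 5 of these (Wnt3a, Wnt1, Wnt7a, Wnt4 and Wnt7b) were lower in mesoderm and 0 higher. Of the other 2, Wnt5a and Wnt5b, neither passed the threshold. Promoter sequence from RefSeq (GRCm38.p6) was at hand for 4 of the 5, and is shown with that of Frzb, the one gene higher in mesoderm that has an entry, so that the letters upstream of genes that parted in these sorts can be set side by side. Each is the 250 bases before the annotated start, 5' to 3'. Capitals mark CTTTGA on either strand, the core read by TCF and LEF factors, and CANNTG, the E-box read by basic helix-loop-helix factors such as TWIST1, with N any base. The motifs did not overlap in these windows.
Wnt1 (chr15:98789607-98789856, + strand): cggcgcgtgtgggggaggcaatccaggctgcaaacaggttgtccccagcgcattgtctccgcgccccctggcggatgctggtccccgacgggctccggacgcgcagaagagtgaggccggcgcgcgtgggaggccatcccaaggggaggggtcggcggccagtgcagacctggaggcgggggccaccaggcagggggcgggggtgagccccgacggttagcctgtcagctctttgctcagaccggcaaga
Wnt3a (chr11:59290752-59291001, - strand): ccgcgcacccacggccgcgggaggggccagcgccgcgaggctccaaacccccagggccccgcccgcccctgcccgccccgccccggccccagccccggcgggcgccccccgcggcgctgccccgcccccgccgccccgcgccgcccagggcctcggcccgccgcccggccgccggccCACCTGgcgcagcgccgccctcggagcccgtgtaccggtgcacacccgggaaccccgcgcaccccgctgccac
Wnt4 (chr4:137277385-137277634, + strand): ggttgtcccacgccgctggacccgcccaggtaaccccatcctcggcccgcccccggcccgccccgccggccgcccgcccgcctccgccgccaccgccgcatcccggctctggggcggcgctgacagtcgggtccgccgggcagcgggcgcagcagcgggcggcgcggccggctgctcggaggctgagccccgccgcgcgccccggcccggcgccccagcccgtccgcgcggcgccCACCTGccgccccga
Wnt7a (chr6:91411354-91411603, - strand): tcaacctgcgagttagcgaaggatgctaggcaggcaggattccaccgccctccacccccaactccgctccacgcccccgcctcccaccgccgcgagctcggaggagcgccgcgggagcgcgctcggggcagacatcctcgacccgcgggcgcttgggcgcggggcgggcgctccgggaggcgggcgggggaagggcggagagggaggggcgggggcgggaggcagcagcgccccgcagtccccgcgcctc
Frzb (chr2:80447397-80447646, - strand): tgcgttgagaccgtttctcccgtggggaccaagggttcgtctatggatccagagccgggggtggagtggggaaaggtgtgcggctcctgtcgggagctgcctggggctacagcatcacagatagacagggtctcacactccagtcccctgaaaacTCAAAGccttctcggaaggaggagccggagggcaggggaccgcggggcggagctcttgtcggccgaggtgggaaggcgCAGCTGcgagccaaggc

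Wnt1 and Wnt7a held neither motif, Wnt3a and Wnt4 held 1 E-box each, and Frzb held 1 of each motif. CTTTGA was in 13.8% and CANNTG in 66.2% of all 32851 promoter windows of that length. Of the 37 windows of the 31 WNT genes with an entry, 16.2% and 64.9% held them. The windows were rich in G and C, 87.6% for Wnt3a, 85.2% for Wnt4, 77.6% for Wnt7a, 71.6% for Wnt1 and 64.4% for Frzb, against a median of 66.8% over the WNT windows and 52.4% over all windows. A match is a string of letters and not a measured site.

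Wnt3a, a canonical ligand of the dorsal midline, had log2 levels of 4.55, 5.38 and 4.41 on mesoderm arrays 1, 2 and 3, against 9.90, 10.09 and 10.41 on crest arrays 1, 2 and 3. Only mesoderm array 2 was above detection in its group, and the sorts were far apart. The log2 difference was -5.35 ± 0.30 (SE, n = 3 per group, limma adjusted p = 1.01e-05), a value that rests partly on mesoderm signals near background. Wnt1, a canonical ligand of the midbrain and dorsal neural tube, had 4.46, 4.53 and 4.61 on the mesoderm arrays and 7.30, 8.79 and 8.27 on the crest arrays. With no mesoderm array above background, the mean of Wnt1 was at least 6.97-fold lower in mesoderm (limma adjusted p = 0.000224). Such a bound sets each undetected array at the lowest log2 value detected on it. Here and below it bounds the difference of means under the main processing and leaves out the spread between arrays. Without background correction the log2 differences were smaller, -1.71 for Wnt1, -1 for Wnt7a and -0.67 for Wnt4.

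Wnt7a, a ligand of the neural tube and of neurons, had 4.76, 4.90 and 4.49 on the mesoderm arrays and 7.42, 6.08 and 7.87 on the crest arrays. It was at least 3.49-fold lower in mesoderm (limma adjusted p = 0.00537), and crest array 2 was clearly the lowest of its group. Wnt4, whose product can signal with or without beta-catenin, had 4.78, 5.01 and 4.94 on the mesoderm arrays and 6.54, 6.86 and 6.85 on the crest arrays, a close spread in both. It was at least 2.70-fold lower in mesoderm (limma adjusted p = 0.000523). Wnt7b, the nearest relative of Wnt7a, had 4.62, 5.01 and 5.90 on the mesoderm arrays, where array 3 alone was above detection, and 7.13, 7.24 and 6.63 on the crest arrays. Its log2 difference was -1.82 ± 0.35 (limma adjusted p = 0.00774). Wnt3a, Wnt1, Wnt7a and Wnt4 were the 4 WNT genes whose call held without any 1 array and under 11 other alternatives. A further setting, which gave no usable values, is set out at the end. Wnt7b lost its call in 1 of those 11, the deposited detection p as filter, which reads the gene from a probe at background.

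The non-canonical ligands were expressed in both sorts. Wnt5a, which guides cell movement and polarity, had 8.47, 9.56 and 6.81 on the mesoderm arrays and 9.49, 10.18 and 9.46 on the crest arrays. The mesoderm arrays were widely spread and mesoderm array 2 lay within the range of crest. The log2 difference of -1.43 had a 95% interval of -2.80 to -0.06 (limma adjusted p = 0.14), and was -2.07 without mesoderm array 2 (adjusted p = 0.0272) and -0.70 without mesoderm array 3 (adjusted p = 0.257). Its second kept probe gave -0.95, and the mean of both passed (-1.19, adjusted p = 0.0172). Wnt5b, its close relative, had 7.57, 7.12 and 6.33 on the mesoderm arrays and 7.84, 8.01 and 8.22 on the crest arrays. The sorts did not overlap, yet the difference of -1.02 (95% interval -1.76 to -0.28) missed the threshold (limma adjusted p = 0.0624), passing without mesoderm array 1 (-1.30, adjusted p = 0.0356), with median scaling (-1.31, 0.0339) and with array weights (-0.95, 0.0227).

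**Figure D2:**
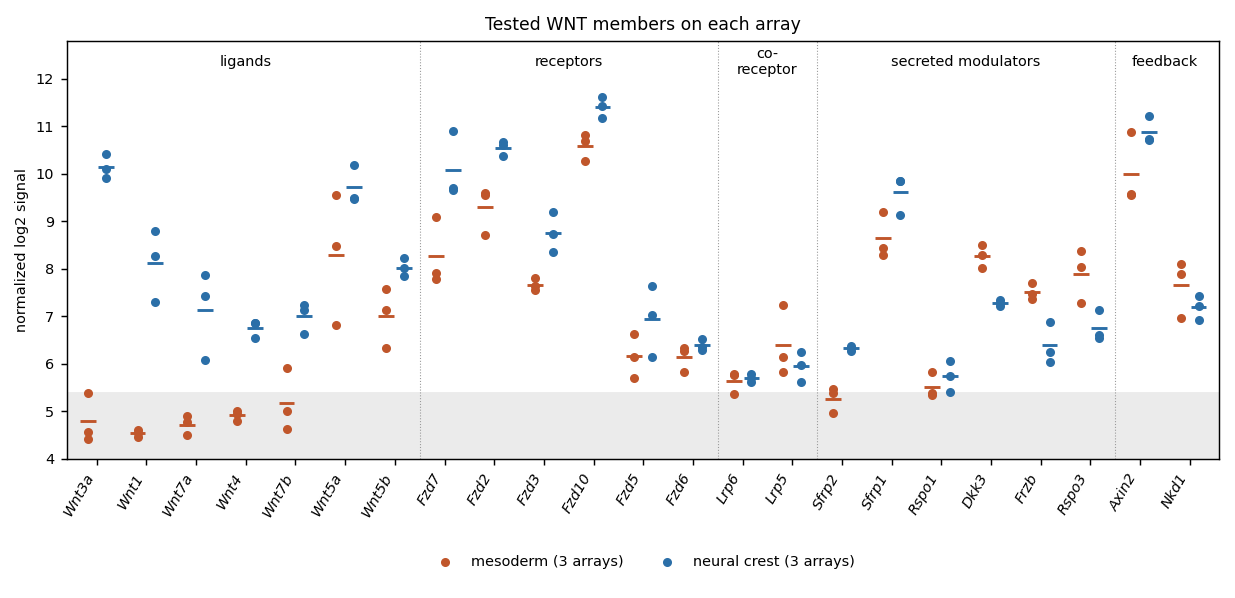
Points give the normalized log2 signal of each of the 23 tested WNT genes on each array (mesoderm left, neural crest right, 3 arrays each), and short lines the group means. The grey band ends at 5.38, the highest of the arrays' lowest detected values: mesoderm values of Wnt3a, Wnt1, Wnt7a and Wnt4 lie in it, and those of Wnt5a and Wnt5b lie above it. Levels are not comparable between genes, since each has its own probe.

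The Frizzled receptor genes were shared by the sorts, with 4 lower in mesoderm. Of 10 on the array 6 were tested, each detected on all 6 arrays, and Fzd7, Fzd2, Fzd3 and Fzd10 were lower and 0 higher. Fzd7, a canonical receptor of stem and progenitor cells, had 7.91, 9.09 and 7.79 on the mesoderm arrays and 9.65, 10.89 and 9.70 on the crest arrays, array 2 being the highest in each sort. The log2 difference was -1.82 ± 0.44 (limma adjusted p = 0.0228). Fzd2, a receptor in both branches, had 9.60, 9.56 and 8.71 against 10.61, 10.37 and 10.67 on the crest arrays, a difference of -1.26 ± 0.29 (limma adjusted p = 0.0166). Neither gene's arrays overlapped between the sorts.

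Fzd3, a receptor of axon guidance and planar polarity, had 7.54, 7.64 and 7.80 on the mesoderm arrays and 8.35, 9.19 and 8.72 on the crest arrays. Its difference was -1.09 ± 0.26 (limma adjusted p = 0.0209), and the other 2 kept probes gave -1.63 and -0.93. Fzd10, a receptor known from the dorsal neural tube, had 10.27, 10.82 and 10.68 on the mesoderm arrays and 11.18, 11.43 and 11.61 on the crest arrays, a difference of -0.82 ± 0.24 (limma adjusted p = 0.048). Its second kept probe, detected on 2 of 3 mesoderm and 1 of 3 crest arrays, went the other way at 0.70, and the mean of its kept probes gave -0.06 (adjusted p = 0.911). Of the 6 WNT genes with more than 1 kept probe, the other 5 had all of theirs in 1 direction.

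The receptor calls were lost in some fits in which those of the ligands Wnt3a, Wnt1, Wnt7a and Wnt4 held. This does not rank the families, since those ligands passed the filter through crest and lay near background in mesoderm. The receptors were detected on every array. Fzd7 lost its call without mesoderm array 1 or 3 or crest array 2 (adjusted p up to 0.0829), Fzd2 without crest array 1 or 3 (up to 0.0764) and Fzd3 without mesoderm array 1 or crest array 2 or 3 (up to 0.0765). Fzd10 lost it without any array but mesoderm array 2 (up to 0.179). With no filter the calls of Fzd7 (0.11), Fzd2 (0.0537) and Fzd10 (0.0685) were also lost, as was that of Fzd7 with the deposited detection p as filter (0.054) and that of Fzd10 with median scaling (0.0661). All of these differences stayed negative. Fzd5 and Fzd6 did not pass the threshold. Fzd5, a receptor of eye and vessel development, had 6.63, 6.14 and 5.70 on the mesoderm arrays and 7.64, 7.03 and 6.14 on the crest arrays (-0.78, 95% interval -1.69 to 0.14, limma adjusted p = 0.222). Fzd6, a planar polarity receptor, had 6.32, 5.82 and 6.26 against 6.51, 6.29 and 6.35 on the crest arrays (-0.25, 95% interval -0.77 to 0.27, adjusted p = 0.508). Their arrays overlapped.

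Neither co-receptor gene passed the threshold. Lrp5 had 6.13, 5.82 and 7.23 on the mesoderm arrays and 5.97, 5.62 and 6.24 on the crest arrays, a difference of 0.45 (95% interval -0.40 to 1.30, limma adjusted p = 0.453) that was 0.03 without mesoderm array 3. Lrp6 had 5.35, 5.75 and 5.78 on the mesoderm arrays and 5.62, 5.70 and 5.77 on the crest arrays, a difference of -0.07 (95% interval -0.57 to 0.43, adjusted p = 0.865). The arrays of both genes overlapped between the sorts.

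**Figure D3:**
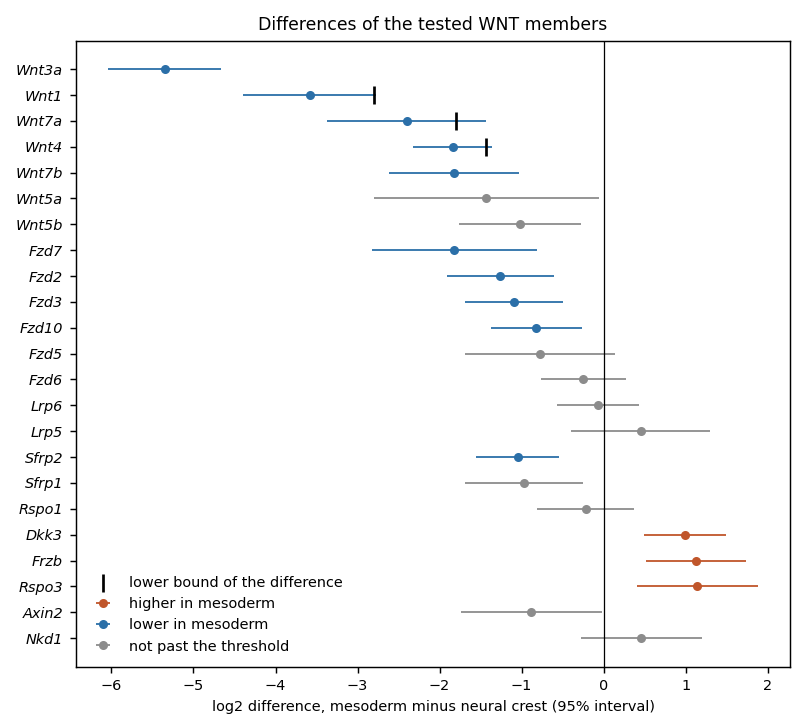
Points give the log2 difference, mesoderm minus neural crest, of the 23 tested WNT genes, coloured by call. Bars are 95% intervals from limma (3 arrays per sort). Black ticks mark the lower bound of the difference of means, without its spread, for Wnt1, Wnt7a and Wnt4. All 5 ligand calls and all 4 receptor calls lie left of 0, and Dkk3, Frzb and Rspo3 lie to the right.

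The 3 WNT genes higher in mesoderm were all secreted modulators. Of 13 modulators on the array 6 were tested, with Dkk3, Frzb and Rspo3 higher and Sfrp2 lower. Dkk3, a divergent Dickkopf protein, had 8.01, 8.28 and 8.50 on the mesoderm arrays and 7.28, 7.21 and 7.34 on the crest arrays. The crest arrays were very close to each other and all below mesoderm. The difference was 0.99 ± 0.22 (limma adjusted p = 0.0153), and the second kept probe gave 0.98. Frzb, a secreted inhibitor that binds WNT ligands, had 7.37, 7.47 and 7.69 on the mesoderm arrays and 6.87, 6.04 and 6.24 on the crest arrays, a difference of 1.13 ± 0.27 (limma adjusted p = 0.0201). Rspo3, an R-spondin needed for vessels and placenta, had 8.04, 8.37 and 7.28 on the mesoderm arrays and 6.60, 6.54 and 7.13 on the crest arrays, a difference of 1.14 ± 0.32 (limma adjusted p = 0.0403). Mesoderm array 3 and crest array 3 came near to each other.

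These calls depended on single arrays and on scaling. Rspo3 kept its call without mesoderm array 3 only (1.45, adjusted p = 0.0102), and lost it without any other array (adjusted p up to 0.122). It also lost it without background correction (0.68, adjusted p = 0.0646) and with the authors' log2 values (0.71, adjusted p = 0.0621), with no filter (0.118) and with the deposited detection p as filter (0.0655). Dkk3 lost it without crest array 1 (adjusted p = 0.0502) or 3 (0.0631), and Frzb without crest array 2 (0.0642) or 3 (0.0916) and with no filter (0.0511). Under median scaling, where the median of all genes moved to -0.303, none of the 3 passed: Dkk3 was at 0.66, Frzb at 0.84 and Rspo3 at 0.83 (adjusted p 0.137 to 0.227), still positive. The count of WNT genes higher in mesoderm was 1 without crest array 1 or 2 and 0 without crest array 3. The count lower was 6 without crest array 3.

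Sfrp2, a secreted Frizzled-related protein of neural tube and mesenchyme, went the other way. It had 4.96, 5.46 and 5.37 on the mesoderm arrays, where only array 2 was above detection, and 6.26, 6.33 and 6.37 on the crest arrays. The difference was -1.05 ± 0.22 (limma adjusted p = 0.0122), and its call was lost without crest array 3 (adjusted p = 0.064), without background correction (-0.36, adjusted p = 0.0631) and with the authors' values (-0.39, adjusted p = 0.0605). Sfrp1, its relative, had 8.29, 9.19 and 8.44 on the mesoderm arrays and 9.13, 9.85 and 9.85 on the crest arrays. The sorts overlapped by mesoderm array 2, and the difference of -0.97 (95% interval -1.69 to -0.25) missed the threshold (limma adjusted p = 0.0675). Its second kept probe gave -1.75, and the mean of both passed (-1.36, adjusted p = 0.0256), as did the fits without mesoderm array 2 (adjusted p = 0.0272) or crest array 1 (0.048). Rspo1, an R-spondin, had 5.38, 5.82 and 5.34 against 5.40, 6.06 and 5.74 on the crest arrays (-0.22, 95% interval -0.81 to 0.37, adjusted p = 0.616).

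The feedback genes did not part the sorts at this threshold. Axin2, a target gene that limits beta-catenin, had 9.55, 10.88 and 9.58 on the mesoderm arrays and 10.73, 11.22 and 10.71 on the crest arrays. Mesoderm array 2 lay inside the range of crest while the other two lay below it. The difference was -0.88 (95% interval -1.74 to -0.02, limma adjusted p = 0.144), and without mesoderm array 2 it was -1.32 (adjusted p = 0.0126). Nkd1, an inducible inhibitor of Dishevelled, had 6.96, 7.88 and 8.10 on the mesoderm arrays and 7.21, 6.91 and 7.43 on the crest arrays (0.46, 95% interval -0.28 to 1.20, adjusted p = 0.373).

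Some WNT genes varied between arrays of 1 sort together with markers of other cells, which were compared after their values were seen. Wnt7a was lowest on crest array 2, at 6.08, and so were all 4 tested young neuron genes, among them Elavl3 (8.46, 7.07 and 8.41 on crest arrays 1, 2 and 3), Dcx (7.45, 6.19 and 7.71) and Stmn2 (9.25, 8.16 and 9.57). The 4 tested neuron markers summed to 290 to 559 units on mesoderm arrays and to 1250, 528 and 1410 on crest arrays 1, 2 and 3. Wnt1 and Fzd7 were instead highest on crest array 2. The summed crest markers (11200, 15700 and 10600 units on crest arrays 1, 2 and 3) were also highest there. So were the summed neural tube markers (6740, 9680 and 8210), but the genes of both lists did not all move that way. On crest array 2, 5 of the 9 tested crest markers were at their highest, Sox10 among them (11.31, 12.39 and 11.45 on crest arrays 1, 2 and 3), and 3 at their lowest, Tfap2b among them (10.98, 10.31 and 10.33). Of the 8 tested neural tube markers, 5 were at their highest there, En1 among them (10.13, 11.50 and 10.76), and 2 at their lowest, Nes (10.93, 10.63 and 11.10) and Lmx1b.

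In mesoderm, array 2 was the one on which Wnt3a passed detection. En1 and En2 stood there at 5.67 and 5.78, against 4.51 to 4.64 on the other mesoderm arrays. In crest these genes did not move together: Wnt3a was highest on array 3 (10.41), and En1 (11.50) and En2 (10.89) on array 2. Of the 8 neural tube markers 5 were at their highest on mesoderm array 2 and 2, Nes (9.91) and Lmx1b (5.13), at their lowest. Of the 23 WNT genes 11 had their highest mesoderm value on array 2, and 12 had their highest crest value on array 3. Such counts were not taken over all genes, so they cannot be read as particular to WNT genes. The median deviation of the 23 from the group mean was 0.18 on mesoderm array 2 and 0.07 on crest array 3. Over all genes it was -0.01 and 0.01. The 8 tested neural tube markers summed to 2460, 2940 and 1980 units on mesoderm arrays 1, 2 and 3, and to 6740, 9680 and 8210 on crest arrays 1, 2 and 3. Sox1, Sox3, Pax2, Pax5, Pax6 and Pax8 were detected on no array. Of the neural tube markers 6 were lower in mesoderm and 0 higher, and of the neuron markers 3 and 0. The part of neural tube cells and neurons in the lower WNT ligands of mesoderm was not tested.

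**Figure D4:**
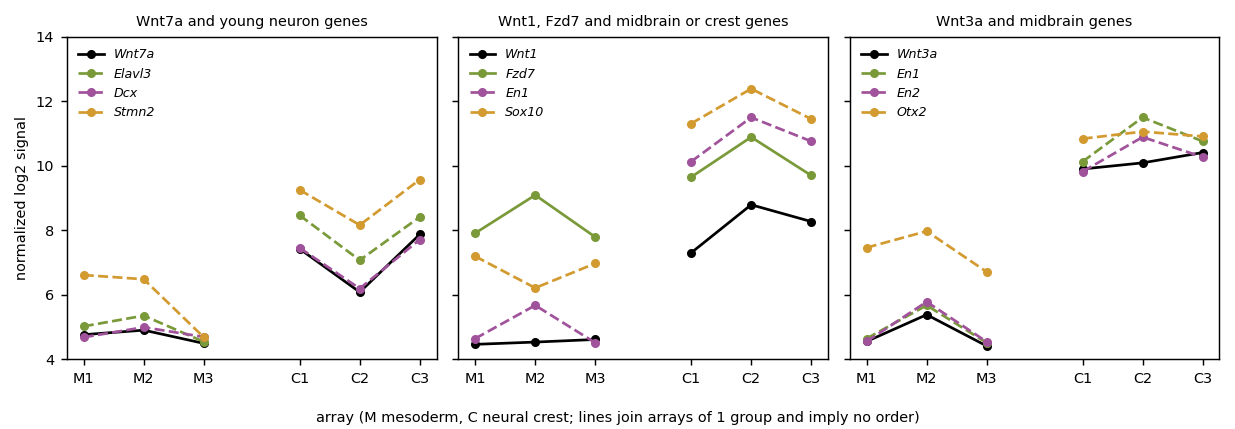
Lines join the normalized log2 signal of WNT genes (solid) and marker genes (dashed). Arrays are M1 to M3 for mesoderm and C1 to C3 for crest, and have no order. In the right panel Wnt3a is highest on C3 in crest, while the neural tube markers En1, En2 and Otx2 are highest on C2. The genes drawn were picked for their pattern: Wnt7a dips on C2 with Elavl3, Dcx and Stmn2, and Wnt1 and Fzd7 peak there with En1 and Sox10, while the crest marker Tfap2b (10.31) and the neural tube marker Nes (10.63), not drawn, are lowest on C2.

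Rspo3, Frzb and Dkk3 stood higher in the mesoderm sort, which held vessels and blood beside head mesoderm. The 13 tested endothelial markers summed to 34600 to 41500 units on mesoderm arrays and 1220 to 1820 on crest arrays, with 12 higher and 0 lower, and only Erg of the list was detected on no array. The 11 tested blood markers summed to 22100 to 32500 on mesoderm arrays and to 4370, 211 and 2520 on crest arrays 1, 2 and 3, with 9 higher and 0 lower. Ptprc and Spi1 were detected on no array. On mesoderm array 2, where Rspo3 was highest, 9 of the 13 endothelial and 9 of the 11 blood markers were at their lowest. There 1 endothelial and 0 blood markers were at their highest. On mesoderm array 3, where Frzb and Dkk3 were highest, 4 endothelial and 8 blood markers were at their highest. At their lowest there were 4 and 0. The part of vessel and blood cells in Rspo3, Frzb and Dkk3 was not tested. The 4 tested epithelial markers summed to 304 to 390 units on mesoderm arrays and 448 to 465 on crest arrays, none past the threshold, and Epcam, Krt5, Trp63, Grhl2 and Grhl3 were detected nowhere.

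Beyond these families, 96 other genes of the pathway were followed in 4 lists, of which 59 were tested. Of these 3 were higher (5.08%) and 11 lower (18.6%) in mesoderm, with a median of -0.36, against 10.1% higher and 8.25% lower of all genes tested. The counts of each list stand against that same background. The share lower cannot be read as particular to the pathway, since Celsr2, Celsr3, En1 and En2 passed the filter through crest. Each was detected on all 3 crest arrays and on at most 1 mesoderm array. Sox17, among the 3 higher, was detected on all 3 mesoderm arrays and on 0 crest arrays. Among genes of ligand secretion, co-receptors and further inhibitors, 0 of 10 were higher and 3 lower (median -0.37). Apcdd1, a membrane inhibitor and target of the pathway, had 7.13, 7.43 and 7.05 on the mesoderm arrays and 10.05, 11.65 and 10.65 on the crest arrays, a difference of -3.58 ± 0.38 (limma adjusted p = 0.000332). Tpbg, a membrane inhibitor of LRP6, differed by -2.89 ± 0.35 (adjusted p = 0.000616). Wls, the carrier that takes WNT ligands to the cell surface, differed by -1.11 ± 0.24 (adjusted p = 0.0139), a call lost without crest array 3 (0.0664) and with the mean of its probes (0.251). The R-spondin receptor genes Lgr4, Lgr5 and Lgr6 and their partners Znrf3 and Rnf43 were detected on no array.

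Planar polarity genes moved both ways, with 2 of 13 higher and 3 lower (median -0.36). The atypical cadherin genes Celsr3 and Celsr2 were lower in mesoderm, Celsr3 by a log2 difference of -3.06 ± 0.26 (limma adjusted p = 8.3e-05), with 1 of 3 mesoderm arrays above detection so that the size rests partly on background, and Celsr2 at least 4.85-fold (adjusted p = 8.01e-05). The Prickle genes parted. Prickle1 had 10.43, 10.33 and 10.49 on the mesoderm arrays and 8.59, 8.75 and 8.63 on the crest arrays, a difference of 1.76 ± 0.20 (adjusted p = 0.000473). With the deposited detection p as filter, Prickle1 (adjusted p = 0.803) and Celsr2 (0.832) were read from other probes and did not pass. Prickle2 had 7.56, 8.55 and 7.92 against 9.12, 9.62 and 9.20 on the crest arrays, a difference of -1.30 ± 0.30 (adjusted p = 0.0171). The call of Prickle2 was lost without mesoderm array 1 or crest array 2 or 3 (adjusted p up to 0.0622) and with no filter (0.0603). Dchs1, a protocadherin of the Fat pathway, was higher by 1.08 ± 0.27 (adjusted p = 0.0263), a call lost without mesoderm array 1 or 2 or crest array 1 or 2 (up to 0.0725), with median scaling (0.136), no filter (0.065), array weights (0.0604) and the deposited detection p as filter (0.973).

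Of 28 tested genes of the pathway's core inside the cell, 1 was higher (3.57%) and 2 lower (7.14%), with a median of -0.32. In 10 of the 28 (35.7%), Ctnnb1 among them, the arrays did not overlap with crest higher, against 19.6% of all genes. Ctnnb1, beta-catenin itself, had 12.05, 11.78 and 12.05 on the mesoderm arrays and 12.25, 12.13 and 12.16 on the crest arrays (-0.22 ± 0.21, limma adjusted p = 0.514). The 1 higher was Sox17, an endothelial factor gene that is also in the endothelial list, at least 18.3-fold (adjusted p = 4.53e-06). Tcf7l2, a nuclear partner of beta-catenin, was lower by a difference of -0.99 ± 0.26 (adjusted p = 0.0304), and Axin1, the scaffold of the destruction complex, by -0.77 ± 0.22 (adjusted p = 0.0411). Both calls were lost without any array but mesoderm array 2 (adjusted p up to 0.103 for Tcf7l2 and 0.13 for Axin1) and with median scaling (0.0518 and 0.0835). Tcf7l2 lost its call with no filter (0.0621), and Axin1 with the deposited detection p as filter (0.244).

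Of the target gene list, which shares Apcdd1 and Notum with the first list, 0 of 10 tested were higher and 4 lower (median -0.42). Besides Apcdd1 these were En1 and En2, which are also neural tube markers, with differences of -5.86 ± 0.42 (limma adjusted p = 3.35e-05) and -5.37 ± 0.40 (adjusted p = 4.52e-05), each detected on 1 of 3 mesoderm arrays, and the zinc finger gene Sp8 at -1.15 ± 0.21 (adjusted p = 0.00564). Sp5, a widely used target of the canonical branch, had 8.21, 9.18 and 8.89 on the mesoderm arrays and 9.01, 9.54 and 9.01 on the crest arrays (-0.42 ± 0.30, adjusted p = 0.378). Tnfrsf19 (-0.41 ± 0.23) and Ccnd1 (0.17 ± 0.32) also did not pass (adjusted p = 0.263 and 0.781).

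**Figure D5:**
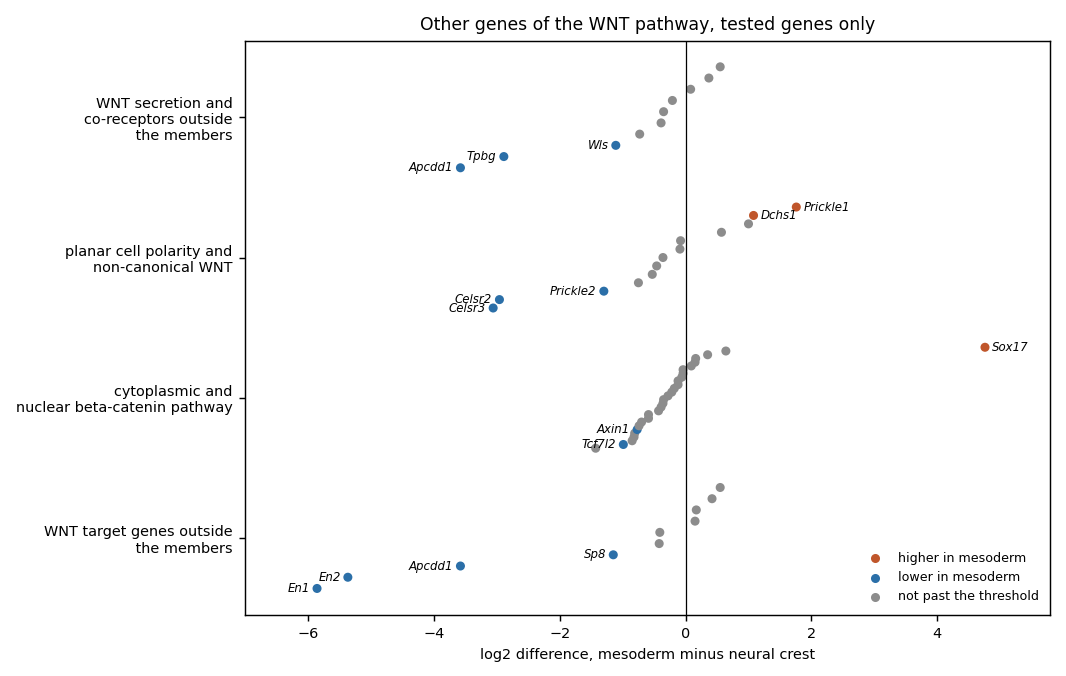
Points give the log2 difference, mesoderm minus neural crest, of the tested genes of 4 further WNT lists (10, 13, 28 and 10 genes from top to bottom, 2 of them in 2 lists), coloured by call and named where they passed. Points spread upward by rank within a list. The named genes left of 0 outnumber those to the right.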

How the data were processed

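The deposited table of raw values gives a linear signal intensity and a detection p-value per probe and array, per the file headers. Per the labels' protocols, RNA was amplified and labelled as biotin cRNA for Illumina mouse arrays. The authors' log2 values equalled quantile-normalized log2 signals to within 0.00571 and served as an alternative. In 27.1% of lines the detection p did not go with the signal, so it was read again on each array from the deposited p of the 101 probes nearest in signal, as their median. Of the 82 probes of the WNT genes 32 were such lines, in 12 genes. In those 12 genes the deposited p-values, sorted within the gene, matched the re-read ones to within 0.003. The other WNT genes had no such line, so a match in them says little. Values are read as standing for genes and not for a particular probe.

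Signals were background-corrected (normexp from detection p), raised by an offset of 16, quantile-normalized and put on the log2 scale with limma 3.58.1 in R 4.3.3. A probe with 1 gene symbol was kept when detected (p under 0.05) on at least 3 of 6 arrays, and a gene was read from its kept probe with the highest mean. limma's moderated test compared mesoderm with crest, 3 against 3 arrays, with Benjamini-Hochberg adjustment over 9214 genes. Summed marker levels are sums of normalized linear signal less the offset. Values of single WNT genes are given for all 23 tested, and other pathway genes are named where they passed or where a count turns on them. The fit and the re-reading were tested on simulated data. The number of arrays limits the precision. Members and lists were chosen with earlier results of these data known.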

Additional observations from a re-analysis of the deposited data

How the results depend on the processing

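Among the 13 WNT genes called, 5 kept direction and call on leaving out each of the 6 arrays and 5 under the 11 other alternatives that gave usable values, 4 of them under both. In all, 12 of the 13 kept their direction in every such fit, the exception being Wnt7b (0.01 with the deposited detection p as filter, read there from a probe at background). The same filter turned Fzd5 (0.0052), Celsr2 (0.06) and Dchs1 (-0.01), and Lrp6 ran from -0.15 to 0.07 on leaving out 1 array, turning without mesoderm replicate 1.

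The count of WNT genes higher in mesoderm (3) was 0 with median scaling and 1 with no filter, and 0 to 3 on leaving out 1 array. The count lower (10) was 6 to 13 on leaving out 1 array. For the other pathway genes the count higher (3) was 1 with the deposited p as filter and the count lower (11) was 20 with array weights, and on leaving out 1 array they were 2 to 3 and 7 to 12. Over all genes, 927 were higher and 760 lower, against 595 and 729 with median scaling and 1297 and 1464 with array weights, and 639 to 938 and 333 to 801 on leaving out 1 array. Calls lost with 1 array fewer come with less power. Crest array 3 gave the lowest counts on its removal, 639 and 333 over all genes.

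Taking the deposited p into the background fit as well set the fitted background at 439 to 817 units, against 97 to 124, so differences shrank to near 0 and this setting has no meaning. It gave 0 and 3 WNT genes, 1 and 2 other pathway genes and 231 and 172 genes in all, higher and lower. The setting turned Wnt7b and Fzd5 (3.5e-06), Celsr2 (2e-05) and Dchs1 (-2.8e-06). Wnt1 (limma adjusted p = 0.11) and Wnt7a (0.161) did not pass in it.

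Arrays of the sorts share replicate numbers, and their deviations from the group means correlated at 0.116, 0.320 and 0.017 for numbers 1, 2 and 3. Mesoderm arrays 1 and 2 correlated best with the crest array of their own number, and mesoderm array 3 with crest array 1 (0.205). The main fit did not take the numbers to pair the arrays. With the replicate number as a block, 2 WNT genes were higher and 12 lower. Over all genes 1029 and 917 were, against 927 and 760 in the main fit. Under the block Wnt5a (adjusted p = 0.0418) and Sfrp1 (0.0322) passed by limma and Rspo3 (0.0553) and Axin1 (0.0561) did not. Probes near background limit what can be seen: the lowest detected log2 value was 5.19 to 5.38 per array.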
